A study of Mus musculus with 6 samples.

Results

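The cytosolic ribosomal protein genes were followed in the hippocampus of mice that lack Trpc4, a receptor-operated cation channel gene, and in wild-type mice. RNA came from 3 Trpc4 knockout samples and 3 wild-type samples, all of male C57BL/6J mice at postnatal day 56, and each sample was hybridised to 1 Affymetrix array. The allele is labelled only as a Trpc4 deletion, with no promoter or cell type restriction named. Whether each sample came from its own animal is not stated in the labels. The p-values therefore describe the spread among the arrays, part of which may be technical. A gene was taken as a member if a probe set named it alone and its symbol was Rpl or Rps with a number and at most 1 letter of a, x, y or l, or was Rplp0, Rplp1, Rplp2 or Rpsa. Pseudogene symbols ending in -ps and the Rps6k kinases stayed out. This gave 64 of the 22180 genes tested, 40 of the large subunit and 24 of the small subunit. They lay on 104 probe sets, of which the 1 with the highest mean over the 6 arrays stood for its gene. A further 12 symbols of the same form stood only on probe sets that name several genes and were not used.

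Cytosolic ribosomes are built from ribosomal RNAs and a set of ribosomal proteins that are needed in nearly equal amounts. Their messenger RNAs are among the most abundant in most cells and usually begin with a run of pyrimidines, the terminal oligopyrimidine (TOP) tract, through which mTOR signalling sets their translation. In hippocampal neurons they are also found in dendrites, where local protein synthesis takes place. Mammalian genomes carry many processed pseudogenes of ribosomal protein genes, whose sequence is close to that of the parent transcript. Probes for such genes can match copies elsewhere in the genome, so values of single members are uncertain to that extent.

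The level of the deleted gene was lower in the knockout arrays. Trpc4 had log2 signals of 7.39, 7.55 and 7.31 in knockout samples, against 8.06, 8.23 and 8.06 in wild-type samples. The knockout was at -0.70 relative to wild type (standard error 0.093), and no knockout value reached the wild-type range. The adjusted p of 0.738 (limma, Benjamini-Hochberg over all genes) did not pass. The region of the transcript that the probes cover is not given in the sources used here, so the remaining signal checks the labels only in direction. Array medians lay between 4.73 and 4.75, and the 15 pairs of arrays had a Pearson's r of 0.985 to 0.988 over all probe sets. All 22 hippocampal neuron markers measured lay above the median of all probe sets, with a median log2 signal of 8.52.

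Start regions of 5 small subunit genes are shown because these genes carry the results below, with the pyrimidine runs near their annotated starts. Each line gives 75 bases from RefSeq (GRCm38.p6), from 25 bases before the annotated start to 50 after it, on the gene's own strand, with the longest run of C or T in capitals (the first where several are equally long).
Rps15 at chr10:80292406-80292480, plus strand: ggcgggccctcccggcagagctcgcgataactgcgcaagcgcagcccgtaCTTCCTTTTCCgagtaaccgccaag
Rps13 at chr7:116334141-116334215, minus strand: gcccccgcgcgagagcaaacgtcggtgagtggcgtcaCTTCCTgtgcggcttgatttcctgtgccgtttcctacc
Rps26 at chr10:128626457-128626531, minus strand: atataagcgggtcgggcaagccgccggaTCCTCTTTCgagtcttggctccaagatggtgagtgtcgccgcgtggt
Rps12 at chr10:23787160-23787234, minus strand: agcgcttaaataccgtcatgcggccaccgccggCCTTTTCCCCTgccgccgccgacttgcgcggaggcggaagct
Rps6 at chr4:86857318-86857392, minus strand: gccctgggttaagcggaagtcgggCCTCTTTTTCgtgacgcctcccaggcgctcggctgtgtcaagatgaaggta

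The run was 11 bases long in Rps15 and Rps12, 10 in Rps6, 9 in Rps26 and 6 in Rps13. It began at base -1 relative to the annotated start in Rps6, at base 4 in Rps26, 9 in Rps12, 13 in Rps13 and 26 in Rps15, and the run of Rps13 is no longer than the median of all regions. RefSeq held start regions for 49 of the 64 members, 58 regions in all. A pyrimidine run of 8 bases or more stood in 40 of these 58 (69%), against 8921 of all 32851 regions of the same length (27.2%). The median longest run was 10 bases in member regions and 6 bases in all regions. Over the full 300 bases, the letters CCGGAAG, which ETS factors can bind, stood on either strand in 37.9% of member regions and in 8.86% of all regions. CTTTCC, whose letters overlap the pyrimidine runs, stood on either strand in 41.4% of member regions and in 26.6% of all regions. These are matches of letters, and no binding was measured.

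Signals of the 64 members ran from 2.72 for Rpl10l to 11.38 for Rpl21. A member is called bright here if its mean exceeds 4.72, the median over every probe set on the array, and dim otherwise. There were 51 bright and 13 dim members, and 27 members lay at or above the 90th percentile of probe sets. Members were not spread evenly over this range: 33 lay above 7, at 7.27 or higher, and the next brightest was Rplp0 at 6.26. Around the limit, Rpl39l had a mean of 5.0 and Rps29 of 4.96, while Rpl39 had 4.71 and Rpl27a 4.69. Signal of a probe set depends on its probes as well as on the RNA, so these values rank probe sets and not the amounts of the proteins' transcripts. Several genes whose products every ribosome carries were among the dim ones, including Rps14, Rps16, Rps20, Rpl17, Rpl30 and Rplp2.

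**Figure D1:**
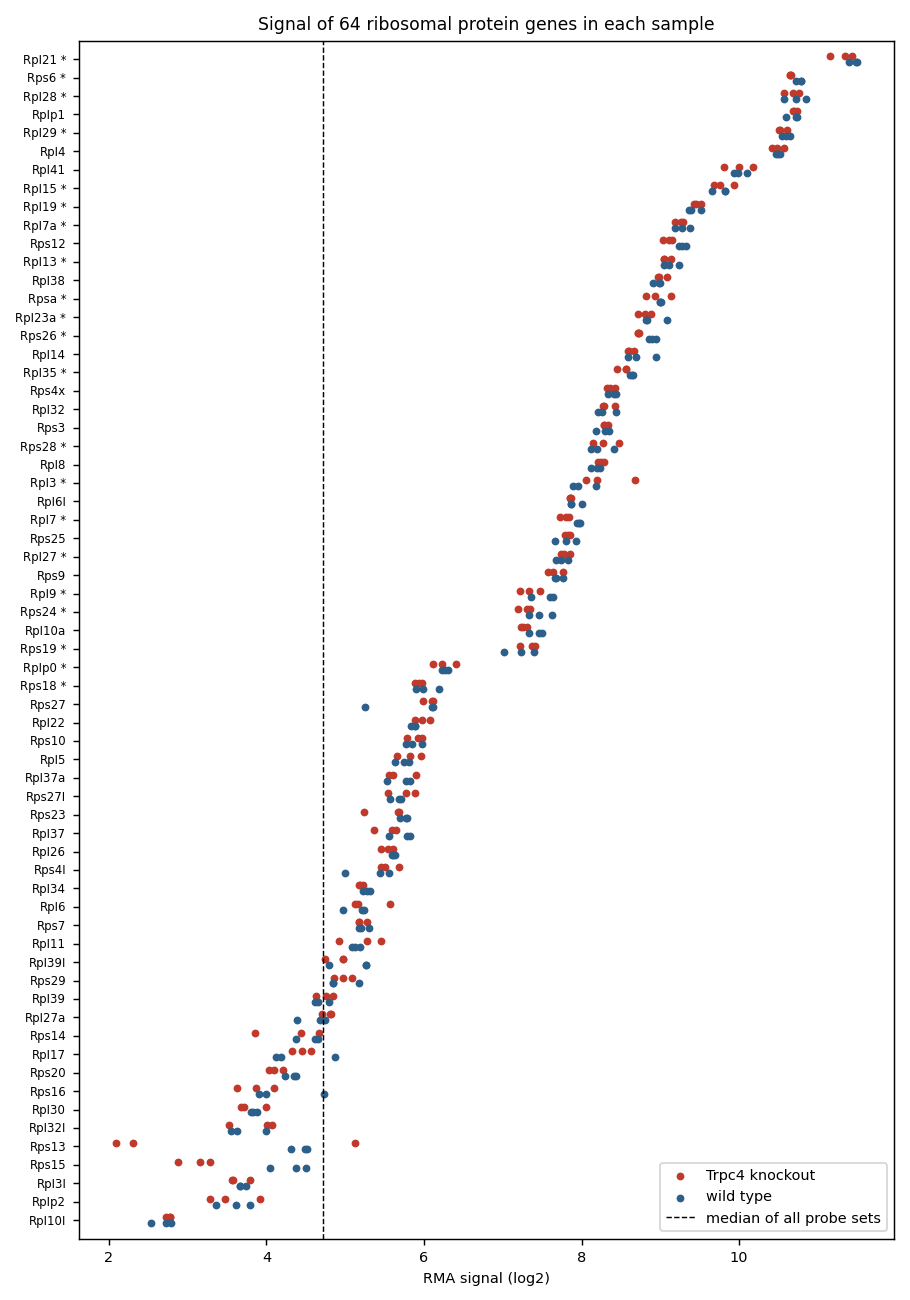
Log2 RMA signal (x axis) of each of the 64 ribosomal protein genes (rows, brightest at the top) in every sample, with knockout samples in red above wild-type samples in blue. An asterisk marks genes whose probe set stands among identifiers of other chromosomes, and the dashed line is the median of all probe sets at 4.72. Rps13 and Rps15, near the bottom, are the rows with points far from the rest.

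The bright probe sets were often not listed beside the genes of their own chromosome. Affymetrix identifiers on this array mostly follow gene order, so each chosen probe set was classed by whether its nearest named identifier on each side belongs to its gene's chromosome. Both neighbours did so for 98.2% of the 21993 genes with a place in RefSeq and for 65.6% of the members. Neither did for 0.487% of genes and for 32.8% of members, or 21 of 64. The first kind is called home and the second away below. Of the 33 members above 7, 19 were read by an away probe set, against 2 of the 31 members at or below 7, and none of the 13 dim members was. The 21 away members had a median log2 signal of 8.81 and a median of 5 RefSeq pseudogenes carrying their symbol, and the 42 home members 5.63 and 1. A member counts as away only where an away probe set is the brightest of its gene. The contrast in signal, and the lack of away probe sets among dim members, are therefore partly set by that choice. Dimmer away probe sets were passed over, such as that of Rplp1 at 4.98 and one of Rpl35 at 4.56. Where the probes of an away probe set lie was not tested.

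Across the members, signals in the knockout were on balance slightly lower. In 38 of 64 members the knockout mean was below the wild-type mean (59.4%), against 45.1% of all genes tested. The median difference, knockout minus wild type, was -0.0285 on the log2 scale for members and 0.0134 for all genes. It was -0.0332 for members and 0.0087 for all genes after centring each array on its median. Without knockout replicate 3 it was -0.0028 for members and 0.0154 for all genes, and 33 of 64 members were lower, against 45% of all genes. With a home probe set for each gene it was -0.0029 over 59 members and 0.0136 over all 21704 genes. By sample, the median deviation of the members from each gene's average was -0.005, -0.004 and -0.048 in knockout samples, against 0.017, 0.004 and 0.029 in wild-type samples. Knockout replicate 3 was the lowest, and the other 2 knockout samples lay within 0.01 of wild-type replicate 2. In bulk tissue, fewer cells of a type and less RNA per cell cannot be told apart, and a change shared by most genes is removed when arrays are normalized together.

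No member passed the adjusted threshold. At an adjusted p under 0.05 (limma, Benjamini-Hochberg over 22180 genes) 0 members and 0 genes were called (0%). The lowest adjusted p of a member was 0.738. With p unadjusted and under 0.05, 5 members were lower in the knockout, Rps15, Rps20, Rpl7, Rps26 and Rps12, against a background of 2.59% of all genes. At that limit 0 members were higher, against 3.16% of all genes, but 2 were higher without knockout replicate 3 and 1 without wild-type replicate 3. The count of lower members was 3, 2 and 1 without knockout replicates 1, 2 and 3, and 2, 4 and 3 without wild-type replicates 1, 2 and 3. Only Rps15 also differed by at least 1.5-fold, as did 0.198% of all genes. All knockout values lay below all wild-type values in 10 members, against 4.45% of genes, and above them in 1 member, Rpl22, against 6.41% of genes. In Rpl22, with 5.98, 6.08 and 5.89 in knockout samples, against 5.88, 5.89 and 5.83 in wild-type samples, the nearest values differed by less than 0.01. The 10 were those 5 with Rpl10a, Rps23, Rps6, Rpl35 and Rpl34. Rpl35 was read by an away probe set, and its dimmer probe sets gave -0.14 and 0.0019, with overlap. For 58 of the 64 members the 95% interval of the difference lay inside 1.5-fold in either direction, a share close to that of all genes (20339 of 22180).

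**Figure D2:**
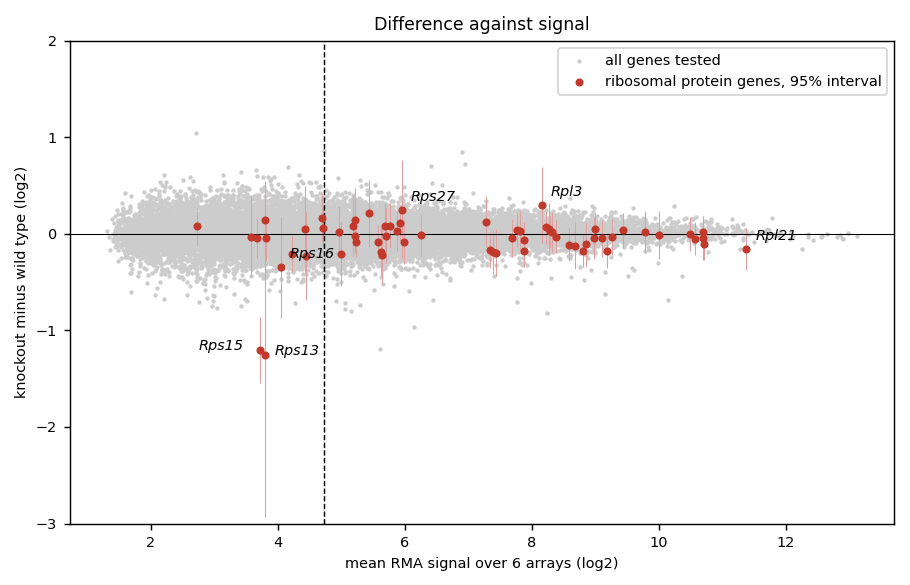
Difference between knockout and wild type (y axis, log2) against mean log2 signal (x axis) for all genes tested (grey) and the 64 ribosomal protein genes (red, with 95% intervals from the limma fit). The dashed line marks the median of all probe sets, and Rps15 and Rps13 lie lowest, at -1.20 and -1.26.

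**Figure D3:**
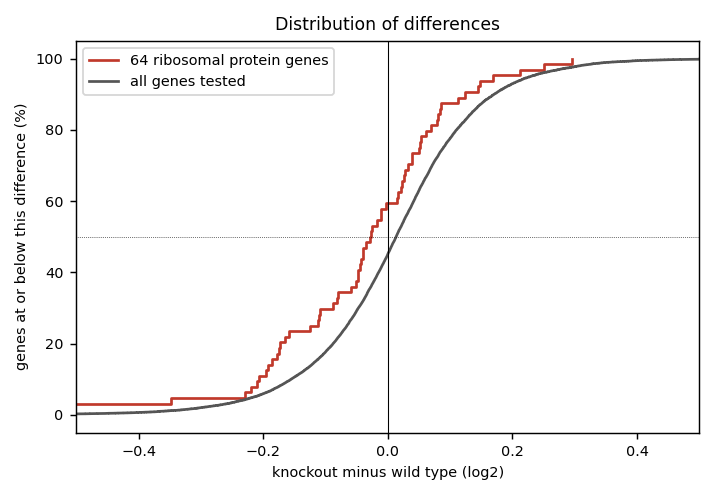
Cumulative share of genes (y axis, %) at or below each difference between knockout and wild type (x axis, log2), for the ribosomal protein genes in red and all genes tested in grey. The axis is limited to 0.5 on either side, so Rps13 and Rps15 fall outside it, and the red curve crosses 50% at -0.0285.

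Lower members were in the majority in both brightness classes and in both subunits. Of the 51 bright members, 30 were lower (58.8%, against 43.3% of all genes above the limit) and the median difference was -0.0246. Of the 33 members above 7, 21 were lower, but the 18 bright ones up to 7 split into 9 and 9, with a median of 0.0052. Of the 13 dim members, 8 were lower (61.5%, against 47.5% of all dim genes) and the median was -0.0435. Lower were 15 of the 21 away and 23 of the 42 home members, and 30 of 59 with a home probe set for each gene. In the large subunit 23 of 40 were lower with a median of -0.0148, and in the small subunit 15 of 24 with a median of -0.0425. Of the 5 members at an unadjusted p under 0.05, 4 belonged to the small subunit. The difference between the subunits was not tested.

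The 2 lowest differences among all 22180 genes belonged to members of the small subunit, both dim. Rps15 sits in the head of the small subunit near the decoding site. Its log2 signals were 3.16, 2.88 and 3.28 in knockout samples, against 4.37, 4.05 and 4.50 in wild-type samples. Every knockout value lay below every wild-type value, with a gap wider than the range within either group. The difference of -1.20 had a standard error of 0.146 and a 95% interval of -1.54 to -0.86, or a knockout signal of 43.5% of wild type. Its unadjusted p of 4.93e-05 was the lowest of all genes tested, and the adjusted p was 0.738. An exact two-sided permutation test gave p = 0.1, the smallest that 3 samples against 3 allow. Its only probe set is a home one, with a mean at the 29.9th percentile of all probe sets.

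Rps13, another small subunit protein, varied among the knockout samples. Its log2 signals were 5.13, 2.30 and 2.09 in knockout samples, against 4.49, 4.51 and 4.31 in wild-type samples. Knockout replicate 1 lay above all wild-type samples and the other 2 far below them. The range of 3.04 within the knockout was the widest within-group range of all 22180 genes, while the wild-type range was 0.20. The difference of -1.26 had a standard error of 0.717 and a 95% interval of -2.93 to 0.41, and the adjusted p was 0.878. It was -2.24 without knockout replicate 1, with an adjusted p of 0.00897 (limma), and -0.82 and -0.72 without replicates 2 and 3. Under no other setting run did Rps13 pass the threshold, and no other member was called under any setting run.

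**Figure D4:**
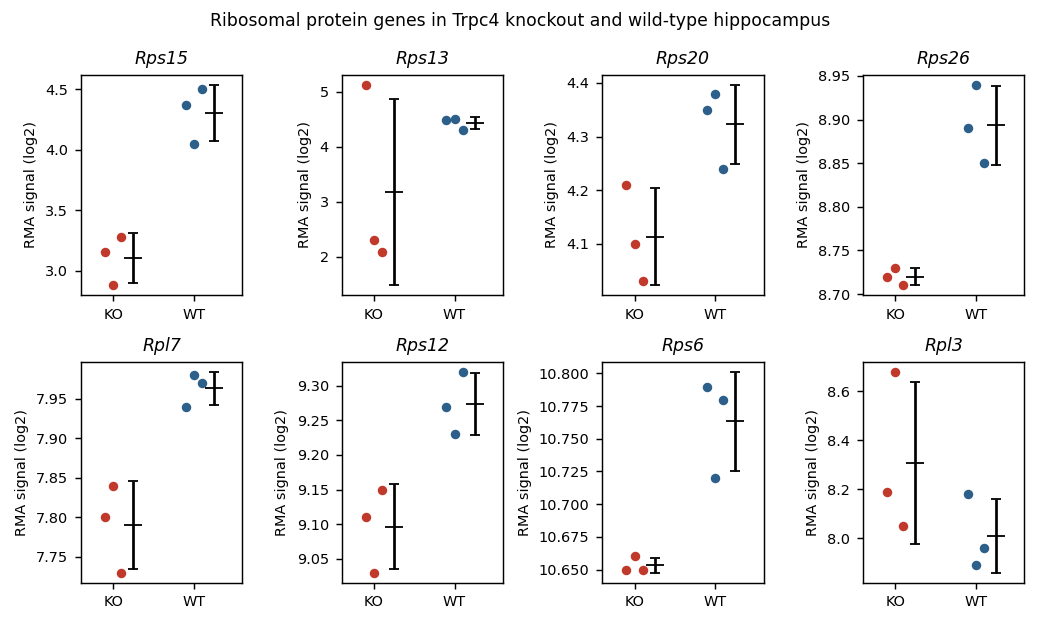
Log2 RMA signal (y axis) in the 3 knockout samples (KO, red) and 3 wild-type samples (WT, blue) for 8 ribosomal protein genes, with mean and SD beside the points. Each panel has its own scale, which does not start at 0. In Rps13 knockout replicate 1, at 5.13, stands apart from the other knockout samples.

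The other small subunit members at an unadjusted p under 0.05 differed by about the same small amount. Rps20, a protein of the head of the small subunit, is dim. It had 4.21, 4.10 and 4.03 in knockout samples, against 4.35, 4.38 and 4.24 in wild-type samples. The groups did not overlap but came within 0.03 of each other on the log2 scale, and their difference of -0.21 had a standard error of 0.083 (unadjusted p = 0.0355, limma). A second, slightly dimmer probe set of Rps20 gave 0.11 in the other direction. Rps26 lies at the exit of the mRNA channel. It had 8.72, 8.73 and 8.71 in knockout samples, against 8.89, 8.94 and 8.85 in wild-type samples. The knockout values were nearly identical and all lower, with a difference of -0.17 and a standard error of 0.070. Rps12, whose chosen probe set is a home one, had 9.11, 9.03 and 9.15 in knockout samples, against 9.27, 9.23 and 9.32 in wild-type samples. Its difference was -0.18 with a standard error of 0.074, and its other 7 probe sets, of which 6 hold identical values, gave -0.13 and -0.18. For Rps20, Rps26 and Rps12 the adjusted p was 0.853 (limma), so none was called.

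Rps6, the substrate of the S6 kinases whose phosphorylation is widely used as a sign of neuronal activity, is the second brightest member. It had 10.65, 10.66 and 10.65 in knockout samples, against 10.79, 10.72 and 10.78 in wild-type samples. All knockout values were lower, but the difference of -0.11 had a 95% interval of -0.27 to 0.05. The only probe set of Rps6 is an away one. Rps23, a protein of the decoding centre, had 5.67, 5.24 and 5.68 in knockout samples, against 5.79, 5.69 and 5.77 in wild-type samples. The groups came within 0.01 of each other, and without knockout replicate 2 the difference of -0.22 became -0.07. Rps24, mutated in some families with Diamond-Blackfan anaemia, had 7.31, 7.34 and 7.19 in knockout samples, against 7.63, 7.33 and 7.46 in wild-type samples. Its groups overlapped, with a difference of -0.19 and a standard error of 0.098. The differences of 3 further members rested on single samples. Rps16 was at -0.35 with all samples and at -0.09 without wild-type replicate 3, which read 4.73. Rps14 was at -0.23 with all samples and at 0.0038 without knockout replicate 3. Rps27 was at 0.25 with all samples and at -0.04 without wild-type replicate 2, which read 5.25 where the other 5 samples read 5.99 to 6.12.

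In the large subunit, Rpl7 was the member at an unadjusted p under 0.05. It had 7.80, 7.84 and 7.73 in knockout samples, against 7.94, 7.98 and 7.97 in wild-type samples. No values overlapped, and their difference of -0.18 had a standard error of 0.071 (unadjusted p = 0.039, adjusted p = 0.853, limma). That probe set is an away one, and the home probe set of Rpl7 gave -0.08, with 4.04, 4.11 and 4.47 in knockout samples, against 4.24, 4.27 and 4.35 in wild-type samples, which overlap. With the mean over its probe sets the difference was -0.13 (unadjusted p = 0.139, limma). Rpl10a, which lies in the mobile stalk beside the exit site for transfer RNA, had 7.31, 7.23 and 7.25 in knockout samples, against 7.50, 7.46 and 7.33 in wild-type samples. The difference of -0.17 had a standard error of 0.079, and the nearest values of the 2 groups were 0.02 apart. Rpl9, Rpl37 and Rpl21 had differences of -0.19, -0.19 and -0.16, with groups that overlapped. Rpl21, the brightest member, had 11.34, 11.43 and 11.15 in knockout samples, against 11.50, 11.40 and 11.48 in wild-type samples. Knockout replicate 3 was the lowest, and without it the difference was -0.08.

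Rpl3, which lies close to the peptidyl transferase centre, had the largest positive difference of any member. It had 8.19, 8.68 and 8.05 in knockout samples, against 8.18, 7.89 and 7.96 in wild-type samples. Knockout replicate 2 was the highest and the groups overlapped, so the difference of 0.30 had a standard error of 0.167 and an adjusted p of 0.878 (limma). Without that sample it was 0.11. These values come from an away probe set, and the home probe sets of Rpl3 gave 0.30 and -0.03. Other bright members of the large subunit had differences near 0. Rpl28 differed by -0.04, Rpl29 by -0.05, Rpl19 by 0.04 and Rpl4, which lines the tunnel for the growing chain, by less than 0.01, with standard errors of 0.098, 0.073, 0.078 and 0.075. The stalk proteins, which recruit translation factors, also had differences near 0: Rplp0 differed by -0.01, Rplp1 by 0.02 and Rplp2, a dim one, by -0.03. Rpsa, also known as the laminin receptor, differed by -0.04, and Rps28 by 0.05.

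The paralogs Rpl3l, Rpl10l, Rpl39l, Rps27l and Rps4l had means of 5.69 or lower. Rpl6l, whose symbol has the same form, was brighter, with a mean of 7.88 and a difference of -0.06. Rpl10l, a paralog expressed chiefly in testis, was the dimmest member, with 2.78, 2.73 and 2.78 in knockout samples, against 2.54, 2.73 and 2.79 in wild-type samples. Rpl3l, a paralog of Rpl3 expressed in skeletal and heart muscle, had 3.58, 3.79 and 3.56 in knockout samples, against 3.66, 3.66 and 3.74 in wild-type samples. Both are known chiefly from tissues other than brain and lay below the dim limit, and the groups overlapped in each. Rpl39l, a paralog of Rpl39 with a known role in testis, had a mean of 5.0 and a difference of -0.21, against 4.71 and 0.06 for Rpl39. Rps27l, a p53-induced paralog of Rps27, had a mean of 5.69 and a difference of 0.08. Rps4l had a mean of 5.44 and a difference of 0.21, against 8.38 and -0.03 for the X-linked Rps4x. In none of these did the groups separate. The remaining dim members, Rpl17, Rpl27a, Rpl30 and Rpl32l, had differences of 0.05, 0.17, -0.04 and 0.15, with overlapping groups. The 26 members not named by the rule for named genes had differences from -0.12 to 0.14, 13 lower and 13 higher, with unadjusted p of 0.161 or more.

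Probe sets of the same gene did not always point the same way. Of the 23 members with at least 2 distinct probe sets, the brightest and the dimmest had differences of the same sign in 14. The median gap in signal between them was 3.59 on the log2 scale. A home and an away probe set were both present in 20 members, and the away one was the brighter in 17, the exceptions being Rpl41, Rps12 and Rplp1. The median signal of the brightest probe set of each kind was 8.43 for away and 5.34 for home. The sign of the difference was shared by both kinds in 12 of the 20.

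The largest disagreement in difference was in Rpl29. Its away probe set had 10.52, 10.61 and 10.51 in knockout samples, against 10.64, 10.55 and 10.60 in wild-type samples, a difference of -0.05. Its home probe set had 6.43, 6.73 and 6.87 in knockout samples, against 6.06, 6.61 and 6.29 in wild-type samples, a difference of 0.35. The groups overlapped in both. Rpl21 was at -0.16 by its away probe set and at 0.13 by its home one, and Rps28 at 0.05 and -0.17. For Rps26 the home probe set was dim, with 3.27, 2.86 and 2.87 in knockout samples, against 3.07, 3.85 and 2.85 in wild-type samples. These values overlapped, so the separation seen at 8.81 was not seen at 3.13. In Rps18 it was the dim home probe set that separated the groups, with 3.82, 3.27 and 3.94 in knockout samples, against 4.07, 4.15 and 4.10 in wild-type samples. Its brighter away probe set differed by -0.09 with overlap. Rplp1 showed the widest gap in signal, 10.69 for the home probe set and 4.98 for the away one, with differences of 0.02 and 0.10.

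**Figure D5:**
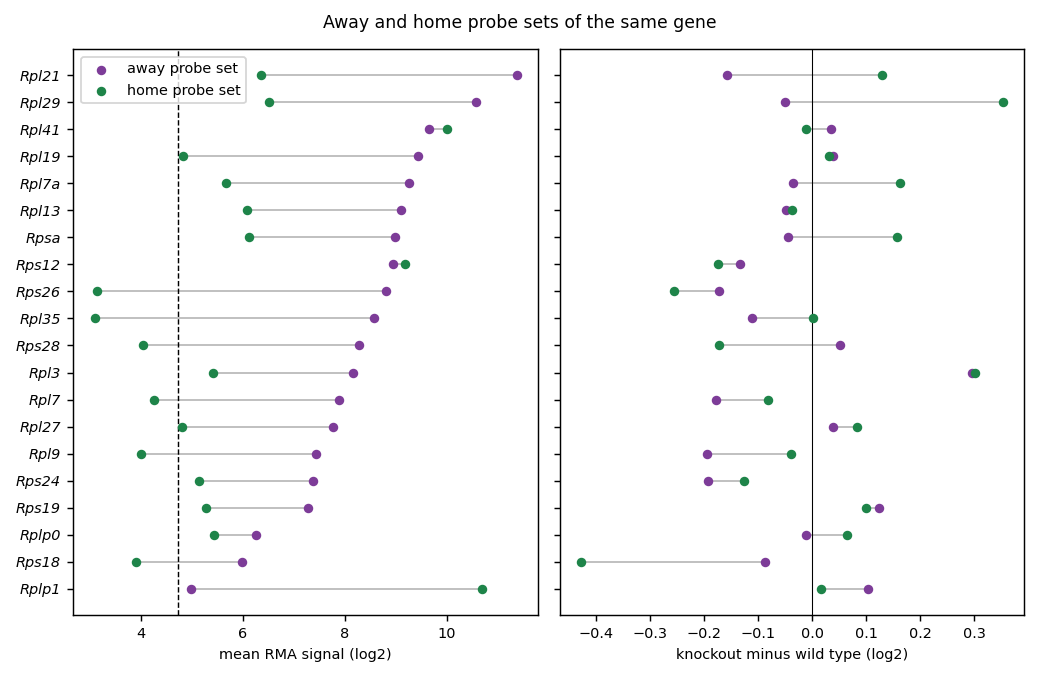
Mean log2 signal (left, x axis) and difference between knockout and wild type (right, x axis, log2) of the brightest away (purple) and home (green) probe set for the 20 members that have both. The dashed line is the median of all probe sets; lines join the probe sets of a gene, and in 8 of the 20 genes they cross 0 on the right.

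Genes of the wider translation machinery had median differences near 0. Of 49 initiation and elongation factors, 25 were lower and 24 higher, with a median difference of -0.0001 and none at an unadjusted p under 0.05. The lowest p belonged to Eif1a, which takes part in start codon scanning, at -0.21, and to Eef1a2, the elongation factor form of mature neurons, at 0.16. Of 82 ribosome assembly factors, 35 were lower and 47 higher, with a median of 0.0122 and none at that limit. Rcl1 at 0.22, Rpf2 at -0.22 and Brix1 at -0.17 came nearest. Of 31 genes that control translation of TOP transcripts, 14 were lower and 17 higher, with a median of 0.0033 and none at that limit. Mtor, the kinase itself, had 7.95, 7.99 and 8.08 in knockout samples, against 7.93, 7.78 and 7.77 in wild-type samples. These did not overlap, but the difference of 0.18 had a standard error of 0.082. Eef2k, which inhibits elongation, was at 0.18 and Rragc, a GTPase upstream of mTOR, at -0.17, also without overlap. Among the 31 genes, groups were separate in 3 higher ones (9.68%, against 6.41% of all genes). They were separate in 2 lower ones (6.45%, against 4.45% of all genes).

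Mitochondrial ribosomal proteins, which serve a separate ribosome, were split evenly, 36 lower and 35 higher of 71, with a median of -0.0025. Mrpl4 had 6.73, 6.72 and 6.67 in knockout samples, against 6.40, 6.44 and 6.27 in wild-type samples. Mrpl55 had 6.54, 6.75 and 6.78 in knockout samples, against 6.95, 7.0 and 6.95 in wild-type samples. These were the only members of that list at an unadjusted p under 0.05, at 0.00263 and 0.0145, and both had an adjusted p of 0.849 (limma). They moved in opposite directions, with differences of 0.34 and -0.28. A further list held ribosomal proteins outside the symbol rule and genes named after them, such as Rps19bp1. Of its 5 measured genes, 2 were lower and 3 higher, and the widest difference was that of Rpl7l1 at -0.08.

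Markers of other cell types were read in the same arrays. All 16 oligodendrocyte and myelin markers measured had a lower mean in the knockout, 13 of them at an unadjusted p under 0.05, against the 2.59% of all genes. None passed the adjusted threshold, with a lowest adjusted p of 0.849 (limma). Their mean deviation from each gene's average was -0.202, -0.504 and 0.082 in knockout samples, against 0.219, 0.167 and 0.238 in wild-type samples. For the 51 bright ribosomal protein genes it was -0.015, 0.017 and -0.036 in knockout samples, against 0.036, -0.008 and 0.006 in wild-type samples. For the 13 dim ones it was 0.106, -0.145 and -0.291 in knockout samples, against 0.049, 0.054 and 0.228 in wild-type samples. Rps13, with 5.13, 2.30 and 2.09 in knockout samples, is among these 13 and weighs on their mean. Their median deviation was 0.047, 0.013 and -0.109 in knockout samples, against -0.016, 0.002 and 0.074 in wild-type samples. Knockout replicate 3 was the lowest for both ribosomal groups and the highest knockout sample for myelin. Of 8 choroid plexus markers 7 were lower, with a median difference of -0.1284 and mean deviations of -0.242, -0.045 and 0.063 in knockout samples, against 0.046, 0.078 and 0.10 in wild-type samples. Of 10 endothelial markers 8 were lower, with a median of -0.0719 and mean deviations of -0.10, -0.008 and 0.008 in knockout samples, against 0.082, -0.099 and 0.115 in wild-type samples. Astrocyte and microglia markers had medians of -0.0061 and 0.0006. The part of these marker differences in the ribosomal protein values was not tested.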

How the data were processed

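The authors deposited 1 table of log2 values for the 6 arrays. Per the submitters' processing notes, Affymetrix Power Tools and RMA produced it. The sources used here give no version or genome build. The values have no counts, so the number of arrays limits the precision. Of 41345 probe sets, 23521 name 1 gene in the platform annotation, and the brightest stood for its gene, which gave 22180. All 64 members were found by gene number in RefSeq (GRCm38.p6), used for names, chromosomes of neighbours, pseudogene symbols and start regions. Genotypes were compared in R 4.3.3 with limma 3.58.1, using lmFit and eBayes with genotype as the term, and Benjamini-Hochberg adjustment. The fitting code was also run on simulated data with independent noise, which cannot show how it handles effects shared by the genes of a sample. The members, lists and alternatives were chosen with earlier results of these data known.

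The rule for named genes takes all dim members, the 10 bright ones of lowest p, the 5 brightest, the 2 on each side of the limit, stalk genes, Rpsa, Rps6, paralogs with their parents, any member called in any setting, the 5 with the widest gap between probe sets, and 3 genes per related list. Rpl6l, Rpl22, Rpl34, Rpl35, Rpl41 and Rps18 were named outside this rule after their values were seen. The classing of probe sets by neighbouring identifiers was also chosen after that. Correlations between the deviations of same-numbered samples were too small to decide whether the numbers mark pairs. The main fit took the samples as unpaired, and a fit with the replicate number as a block is given below. Python 3.11.15 and matplotlib 3.10.9 drew the figures.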

Additional observations from a re-analysis of the deposited data

How the results depend on the processing

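With 3 arrays in each genotype, and with no background signal measured, small differences and dim probe sets are the least certain. The count of 0 members at the adjusted threshold held under quantile normalization, centring, array weights, the replicate block, trend and robust variance, the filter on dim probe sets, the mean over probe sets, a home probe set and a threshold of 0.1. It ran from 0 to 1 when a sample was left out. The 5 members at an unadjusted p under 0.05 became 2 with the replicate number as a block, 8 with trend and robust variance, 1 with the mean over probe sets, 1 at p under 0.01, 1 with a 1.5-fold limit added, and 2 to 4 when a sample was left out. Same-numbered samples correlated at 0.067, 0.035 and -0.004 in their deviations, and the other pairs of a knockout and a wild-type sample at -0.061 to 0.027. Correlations this small do not decide whether the numbers mark pairs. The 11 members whose groups do not overlap in either direction became 15 to 20 when a sample was left out. They became 8 with the mean over probe sets and 9 of 59 with home probe sets. The 10 with lower, separate knockout values became 12 to 18 when a sample was left out, where fewer samples make separation easier. Over all genes that share went to between 8.3% and 10.1%, against 4.45% with all samples. With the mean over probe sets the 10 became 7 (4.55% of all genes), and with home probe sets 7 of 59 (4.44% of all genes). The median difference was -0.0029 with home probe sets, chosen after seeing the data, and ran from -0.0409 to -0.0028 when a sample was left out. With trend and robust variance Trpc4, at -0.7010, passed the threshold (adjusted p = 0.0378, limma).

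Among 54 single genes, 684 of 723 values kept direction and side of the threshold, and 16 genes changed sign somewhere, in no case past the threshold; the cause was not tested. With home probe sets Rpl21 was at 0.1296, Rpl29 at 0.3538, Rplp0 at 0.0644, Rpsa at 0.1567 and Rps28 at -0.1720. With the mean over probe sets Rpl29 was at 0.1512, Rplp0 at 0.0264, Rpsa at 0.0560 and Rps28 at -0.0607. With array weights Rpl4 was at 0.0017. When a sample was left out the ranges were -0.4034 to 0.0038 for Rps14, -0.0840 to 0.2908 for Rpl17, -0.1434 to 0.0135 for Rpl30, -0.2114 to 0.1090 for Rplp2, -0.1133 to 0.0288 for Rpl28, -0.0286 to 0.0437 for Rplp1, -0.0349 to 0.1302 for Rps29, -0.0903 to 0.0564 for Rplp0, and -0.1284 to 0.0255 for Rpsa. They were -0.0366 to 0.3978 for Rps27, -0.0428 to 0.0325 for Rpl4, -0.0371 to 0.1327 for Rps28, -0.0260 to 0.1148 for Rpl22l1 and -0.0668 to 0.0205 for Rps19bp1.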
